A study of Mus musculus with 36 samples.

Results

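The Sonic hedgehog pathway genes are 9 genes of the 46603 in the count tables, taken by name: the ligand Shh; the receptor Ptch1 and the transducer Smo; the coreceptors Boc and Gas1; the ligand-binding inhibitor Hhip; and the transcription factors Gli1, Gli2 and Gli3. RNA sequencing counts were available for the neocortex of single C57Bl/6J mouse embryos at embryonic day 12.5 (E12.5), with 3 embryos each of Chd8+/+, Chd8+/-, Chd8neo/neo and Chd8neo/- genotype, and for telencephalic vesicles at E10.5, with 3 Ctrl and 3 cKO libraries, each made from a pooled pair of embryos. The neo allele carries a selection cassette in an intron of Chd8, which encodes a chromatin remodeller, and lowers its expression; Chd8neo/- embryos carry 1 neo and 1 null allele. The cKO embryos (Sox1-Cre; Chd8 f/f) lose exon 3 of Chd8 in the Sox1 lineage, the early neural progenitors and their progeny, while the Ctrl libraries are labelled as a combination of Chd8 f/f and Chd8 f/+. The question for each mutant was whether the transcript level of any of the 9 genes differed from control. The Chd8+/+ embryos served as control of all 3 mutant genotypes at E12.5, so those comparisons share samples.

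In hedgehog signalling the secreted ligand binds Ptch1, which otherwise holds the membrane protein Smo inactive. Active Smo works through the primary cilium to turn Gli2 and Gli3 from repressors into activators, and Gli1, Ptch1 and Hhip are themselves transcribed in responding cells, so that their RNA is commonly read as a measure of pathway output. In the telencephalon Shh is known for patterning ventral territories, where it favours Nkx2-1 and Olig2 expression, and Gli3 repressor is known for protecting the dorsal, cortical side.

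The E12.5 libraries held 38774591 to 61051667 counts each and the E10.5 libraries 49632937 to 68488879, and levels are given as counts per 1000000 (CPM) with TMM scaling. Chd8 itself was 237 ± 2.41 CPM in Chd8+/+ (SD, n = 3), 167 ± 3.04 in Chd8+/-, 209 ± 5.64 in Chd8neo/neo and 149 ± 8.38 in Chd8neo/- neocortex, and all 3 mutant groups lay below all Chd8+/+ libraries. At E10.5 it was 171 ± 12 CPM in Ctrl and 121 ± 4.78 in cKO vesicles, where transcript lacking exon 3 is still counted. The counts cover the whole gene, so at E12.5 they do not tell normal transcript from that spliced into the cassette. The paper reports less Chd8 protein, and by RT-PCR at an earlier stage less transcript, in Chd8neo/neo than in Chd8+/-. That is the reverse of the order of these counts. All 8 dorsal telencephalon markers were present, with summed levels of 1304 to 1665 CPM at E12.5 and 725 to 904 at E10.5. The 10 ventral telencephalon markers, however, summed to 602 to 814 CPM in the E12.5 libraries labelled cortex, against 10.8 to 27.3 at E10.5. Ventral cells were therefore part of what was sequenced at E12.5, and their part in the values of Shh below was not tested. In bulk tissue, fewer cells of a type and less RNA per cell cannot be told apart.

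The 9 genes spanned a wide range of levels. Per kilobase of exon, Gas1 was the highest in Chd8+/+ neocortex at 49.4 ± 4.97 CPM per kb (SD, n = 3). Smo followed at 31.2 ± 1.23 and Gli3 at 28.8 ± 3.11, and the libraries of these neighbours overlapped. Boc was at 19.7 ± 2.35, Ptch1 at 12.2 ± 0.693 and Gli2 at 9.79 ± 1.46 CPM per kb, each separate from the next in all 3 libraries. Gli1, at 4.23 ± 0.483, and Shh, at 3.6 ± 0.698, overlapped again, and Hhip was the lowest at 0.661 ± 0.0703. The receptors, coreceptors and Gli2 and Gli3 thus all stood above the ligand, Gli1 and Hhip per length.

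Shh (ENSMUSG00000002633, GRCm38 chr5:28456815-28467256, minus strand) was present in every E12.5 library and at or near the detection floor at E10.5. Chd8+/+ neocortex had 9.43, 8.78 and 12.5 CPM and Chd8+/- 8.73, 15.7 and 8.83, with the replicates in order here and below. Chd8neo/neo had 6.21, 16.6 and 8.06 CPM, which held both the lowest and the highest of the 12 libraries, and Chd8neo/- had 11.4, 10.6 and 11.3. All 4 genotypes overlapped, and the spread within Chd8neo/neo exceeded every difference between group means. At E10.5 the raw counts of Shh were 2, 4 and 1 in Ctrl and 0, 2 and 5 in cKO vesicles, and most were at or under the floor of 3 counts, so Shh was not tested there and no fold was computed. Exons of 2 genes on the other strand, 9530036O11Rik and Gm26894, cover 28.3% of the exon bases of Shh, and at E12.5 reads were counted without regard to strand, so that reads in that stretch could not be assigned to Shh alone.

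Of the genes commonly read as pathway output, Hhip and Ptch1 also varied more between embryos than between genotypes. The spread of Gli1 was wide only within Chd8+/- (SD 5.86 CPM, against 1.77 in Chd8+/+, 1.18 in Chd8neo/neo and 1.76 in Chd8neo/-). Ptch1 (ENSMUSG00000021466, chr13:63508328-63573598, minus strand) was 107, 101 and 113 CPM in Chd8+/+, 99.6, 155 and 96.3 in Chd8+/-, 104, 148 and 92.6 in Chd8neo/neo and 105, 93.7 and 111 in Chd8neo/- neocortex. Hhip (ENSMUSG00000064325, chr8:79966115-80058006, minus strand) was 3.03, 3.04 and 3.64 CPM in Chd8+/+, 2.94, 4.69 and 2.83 in Chd8+/-, 2.72, 4.08 and 3.09 in Chd8neo/neo and 3.90, 3.14 and 3.17 in Chd8neo/- libraries. For both genes the same 2 libraries were the highest of the 12, Chd8+/- replicate 2 and Chd8neo/neo replicate 2, and these were also the highest for Shh. Gli1 (ENSMUSG00000025407, chr10:127329889-127341589, minus strand) was 17.4, 13.9 and 15.2 CPM in Chd8+/+, 14.5, 23.2 and 12.1 in Chd8+/-, 19.3, 20.4 and 18.05 in Chd8neo/neo and 19.3, 18.1 and 21.5 in Chd8neo/- neocortex. Every hypomorph library, of either genotype, thus lay above every Chd8+/+ library for Gli1, while the Chd8+/- group held both the lowest and the highest value.

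The 2 libraries that stood apart also carried the most transcript of neighbouring brain regions. The 9 diencephalon and hypothalamus markers summed to 111 CPM in Chd8+/- replicate 2 and 103 CPM in Chd8neo/neo replicate 2, against 29.3 to 69.8 CPM in the other 10 libraries. Otp, a hypothalamic transcription factor, was 27.8 and 44.5 CPM in these libraries, and 1.02 CPM in Chd8neo/neo replicate 1, the library with the least Shh. Nkx2-1, a ventral factor, was also lowest in that library at 55.6 CPM and highest in Chd8neo/neo replicate 2 at 99.5 CPM. It was 75.5 CPM in Chd8+/- replicate 2, however, and 98.1 CPM in Chd8+/+ replicate 3. The 10 ventral telencephalon markers summed to 664 CPM in Chd8+/- replicate 2, the lowest of its group. In Chd8neo/neo replicate 2 they summed to 751 CPM, the highest of its group. For this sum every hypomorph library lay below every Chd8+/+ library. It was 644 to 751 CPM in Chd8neo/neo and 602 to 749 in Chd8neo/-, against 767 to 814 in Chd8+/+. Meninges and mesenchyme markers were highest in Chd8+/- replicate 2, at 1217 CPM against 578 to 884 in the others. The part of these other regions in the levels of Shh, Ptch1, Hhip and Gli1 was not tested, and comparisons that rest on these libraries are given below with and without them.

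**Figure D1:**
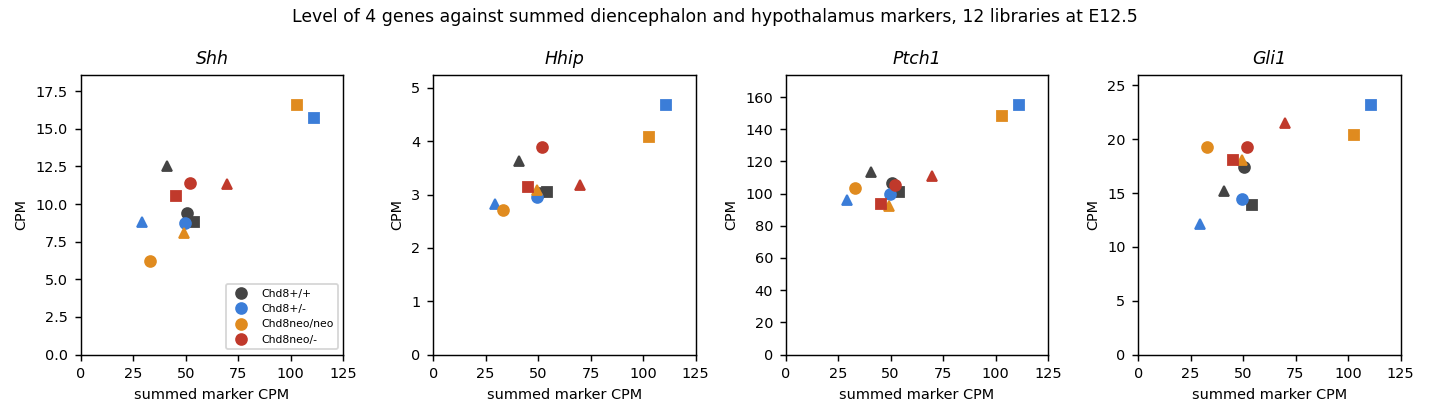
Level of Shh, Hhip, Ptch1 and Gli1 (vertical axes, CPM from 0) against the summed CPM of 9 diencephalon and hypothalamus markers (horizontal axes) in the 12 E12.5 libraries; colour gives the genotype and circle, square and triangle are replicates 1, 2 and 3. The blue and orange squares, Chd8+/- replicate 2 and Chd8neo/neo replicate 2, lie at 111 and 103 CPM of markers and hold the highest Shh, Hhip and Ptch1 values, whereas for Gli1 a Chd8neo/- library at 21.5 CPM lies between them.

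The signal-receiving genes were more even. Smo (ENSMUSG00000001761, chr6:29735503-29761365, plus strand) was 178, 168 and 181 CPM in Chd8+/+, 182, 183 and 180 in Chd8+/-, 193, 188 and 181 in Chd8neo/neo and 180, 187 and 176 in Chd8neo/- neocortex. Gas1 (ENSMUSG00000052957, chr13:60174405-60177365, minus strand), a membrane-anchored coreceptor, was 161, 131 and 147 CPM in Chd8+/+, 156, 136 and 163 in Chd8+/-, 205, 165 and 177 in Chd8neo/neo and 159, 175 and 152 in Chd8neo/- libraries. In both genes every Chd8neo/neo library lay above every Chd8+/+ library, for Smo by a margin under 1 CPM. Boc (ENSMUSG00000022687, chr16:44485045-44558897, minus strand), a coreceptor of the immunoglobulin superfamily, was 87.8 ± 10.5 CPM in Chd8+/+, 88.3 ± 7.21 in Chd8+/-, 104 ± 12.4 in Chd8neo/neo and 89.8 ± 12.5 in Chd8neo/- neocortex (SD, n = 3 each), with all groups overlapping Chd8+/+.

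Gli2 (ENSMUSG00000048402, chr1:118834132-119053619, minus strand), the main activator, was 71.2, 55.8 and 74.7 CPM in Chd8+/+, 71.3, 78.9 and 70.0 in Chd8+/-, 92.3, 82.8 and 74.1 in Chd8neo/neo and 75.0, 80.5 and 65.0 in Chd8neo/- neocortex. Gli3 (ENSMUSG00000021318, chr13:15463235-15730026, plus strand), the main repressor, was 277.96, 245 and 305 CPM in Chd8+/+, 284.1, 284.2 and 274.2 in Chd8+/-, 389, 340 and 283 in Chd8neo/neo and 298, 317 and 264 in Chd8neo/- libraries. The Chd8neo/neo means were the highest of the 4 genotypes for both, but Chd8neo/neo replicate 3 lay within the Chd8+/+ range, so the groups overlapped.

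**Figure D2:**
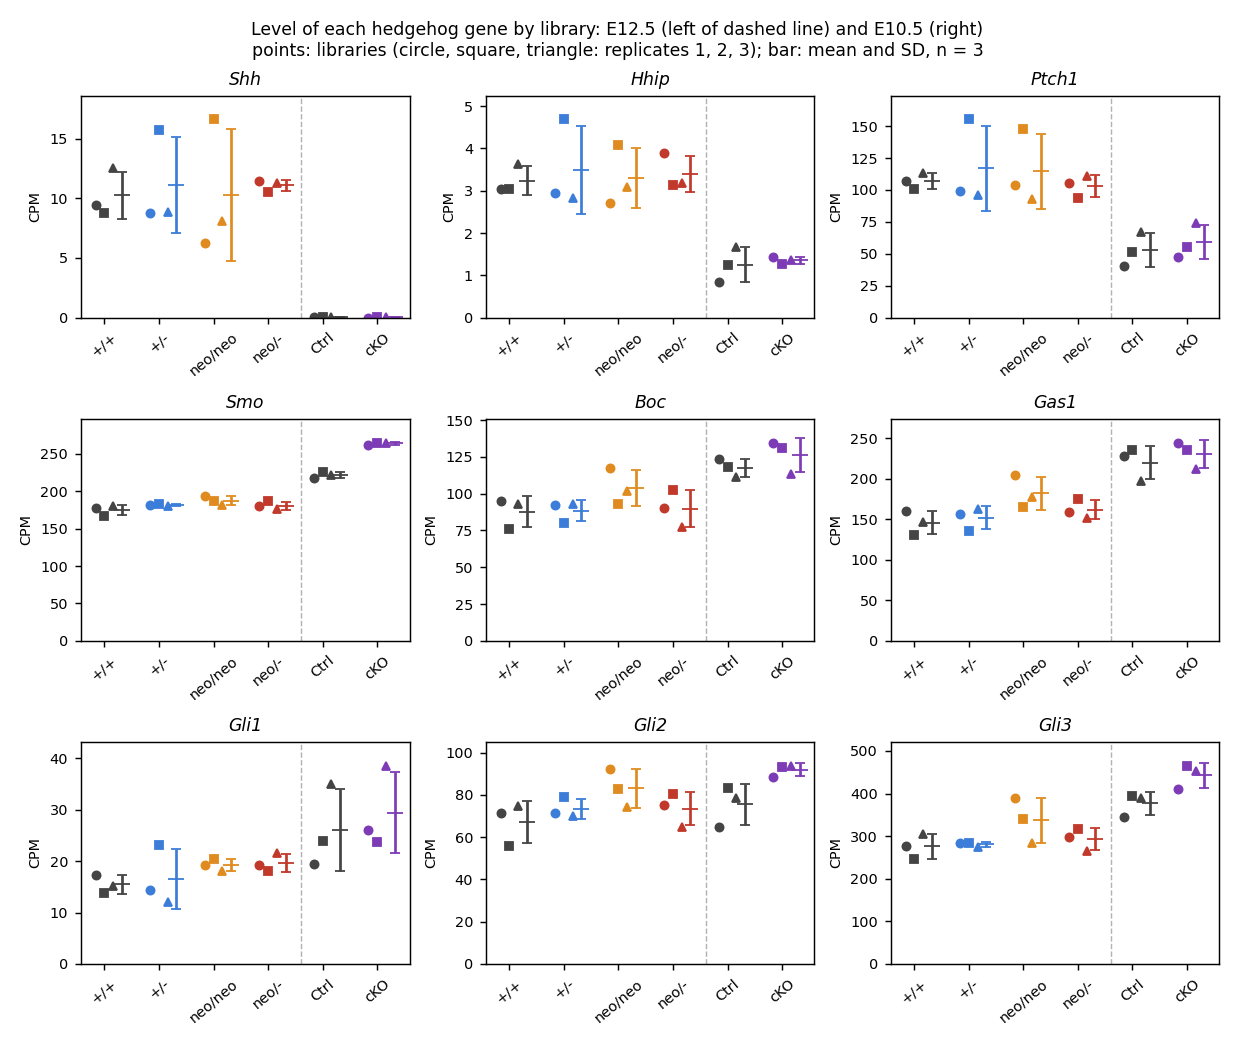
Level of each of the 9 genes in every library (vertical axes, CPM from 0), with the 4 E12.5 genotypes left and the E10.5 Ctrl and cKO groups right of the dashed line; points are libraries and bars are mean and SD of n = 3. Shh reached 6.21 to 16.6 CPM at E12.5 and at most 0.0796 CPM at E10.5, the squares of Chd8+/- and Chd8neo/neo stand above their groups for Shh, Hhip and Ptch1, and the Smo points of cKO lie at 262 to 265 CPM, above all Ctrl points.

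None of the 9 genes passed the test in heterozygous neocortex. By edgeR's quasi-likelihood test, with Benjamini-Hochberg adjustment over the 18810 genes tested at E12.5, 0 of 9 were called at an adjusted p under 0.05 in Chd8+/- against Chd8+/+, where 0.0213% of all genes were called. The unadjusted p was also under 0.05 for 0 of the 9, and DESeq2 called 0. None was higher in all Chd8+/- libraries, where 5.48% of all genes were. All 9 log2 fold changes were above 0 and the largest, that of Ptch1, was 0.13 (95% interval -0.37 to 0.63, adjusted p = 0.97). The median over the 9 was 0.10, against 0.00 over all genes. The direction of 4 of them rested on the libraries with the most diencephalic and hypothalamic transcript: without Chd8+/- replicate 2 and Chd8neo/neo replicate 2, Shh went to -0.22, Ptch1 to -0.13, Hhip to -0.17 and Gli1 to -0.23, all uncalled. The interval was narrowest for Smo (log2 0.05, -0.04 to 0.14) and widest for Shh (log2 0.12, -0.72 to 0.96), so values of Shh within that interval could not be told from no change.

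In Chd8neo/neo neocortex the values leaned upwards without a call. Summed over the 9 genes, Chd8+/+ replicate 2 was the lowest of the 12 libraries at 802 CPM, against 919 and 944 in replicates 1 and 3. The same sum was 1128, 1058 and 940 CPM in Chd8neo/neo, of which replicate 3 lay within the Chd8+/+ range. The largest differences were those of Gas1 (log2 0.32, SE 0.10, adjusted p = 0.073), Gli1 (log2 0.31, SE 0.20, adjusted p = 0.38), Gli2 (log2 0.30, SE 0.12, adjusted p = 0.14) and Gli3 (log2 0.29, SE 0.11, adjusted p = 0.13) by edgeR's quasi-likelihood test. Boc was at log2 0.24 and Ptch1 at 0.10, Smo at 0.09, Hhip at 0.03 and Shh at 0.02 (95% interval -0.81 to 0.86). The median of the 9 was 0.24, against 0.01 over all genes. edgeR called 0 of 9 at an adjusted p under 0.05, against 8.16% of all genes, while 4 of 9 had an unadjusted p under 0.05 against 25.2% of all genes. Smo, Gas1 and Gli1 were higher in all 3 Chd8neo/neo than in all 3 Chd8+/+ libraries, 3 of 9 genes, where 12.5% of all genes were. DESeq2 called 3 of 9, Gas1 (adjusted p = 0.011), Gli3 (adjusted p = 0.038) and Gli2 (adjusted p = 0.040); over all alternatives the adjusted p of Gas1 ran from 0.011 to 0.23, that of Gli2 from 0.040 to 0.38 and that of Gli3 from 0.019 to 0.38. Without Chd8+/- replicate 2 and Chd8neo/neo replicate 2, edgeR's quasi-likelihood test called Gas1 (log2 0.38, adjusted p = 0.040), while the uncalled values of Shh, Ptch1 and Hhip turned to -0.52, -0.13 and -0.16.

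In Chd8neo/- neocortex, with the least Chd8 RNA, the lean was smaller for all but Gli1, Hhip and Shh. Gli1 was at log2 0.34 (SE 0.20, adjusted p = 0.33), Gas1 at 0.15, Gli2 at 0.13, Shh at 0.11, Gli3 at 0.09, Hhip at 0.07, Smo at 0.04, Boc at 0.03 and Ptch1 at -0.05. By edgeR's quasi-likelihood test 0 of 9 were called, against 11.5% of all genes; 0 of 9 had an unadjusted p under 0.05, against 26.5% of all genes, and DESeq2 called 0. The median of the 9 was 0.09, against 0.00 over all genes, and only Gli1 was separate between the groups, 1 of 9 where 16.4% of all genes were higher in all Chd8neo/- libraries. For Gli1 the call depended on Chd8+/- replicate 2, which is in neither group but adds to the shared estimate of spread: without it the adjusted p was 0.031, and with only the 2 groups in the fit it was 0.020, within a range of 0.020 to 0.57 over all alternatives.

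No difference between the 2 hypomorphs was called by the same edgeR test, with intervals that leave room for one. In Chd8neo/- against Chd8neo/neo 0 of 9 were called, with 0 at an unadjusted p under 0.05 and 0 by DESeq2, where edgeR called 0.0159% of all genes, and 0 of 9 were higher in all Chd8neo/- libraries, where 7.99% of all genes were. The largest differences were those of Boc (log2 -0.21, 95% interval -0.49 to 0.07) and Gli3 (log2 -0.20, 95% interval -0.45 to 0.04), both lower in Chd8neo/-, with all 12 libraries. Without Chd8+/- replicate 2 and Chd8neo/neo replicate 2 the largest was that of Shh, which went from 0.09 to 0.63 (SE 0.15, adjusted p = 0.49, range over all alternatives 0.49 to 1.0), while Hhip went from 0.04 to 0.22 and Ptch1 turned from -0.15 to 0.07, all uncalled. In Chd8neo/neo against Chd8+/-, 0 of 9 were called by edgeR or DESeq2, with 2 at an unadjusted p under 0.05, Gas1 (log2 0.26, adjusted p = 0.14) and Gli3 (log2 0.27, adjusted p = 0.18); edgeR called 5.28% of all genes. Gas1 and Boc were higher in all Chd8neo/neo than in all Chd8+/- libraries, 2 of 9 genes, where 13.4% of all genes were. Without Chd8+/- replicate 2 and Chd8neo/neo replicate 2 together, Shh went from -0.10 to -0.30 and Gli1 from 0.21 to 0.49 (adjusted p = 0.085), and 0 of 9 were called. Without Chd8+/- replicate 2 alone, Gli1 was called (log2 0.53, adjusted p = 0.026, range over all alternatives 0.026 to 0.95), and without Chd8neo/neo replicate 3, Gli3 was called both against Chd8+/- (log2 0.37, adjusted p = 0.029, range 0.029 to 0.49) and against Chd8+/+ (log2 0.39, adjusted p = 0.019). These groups may share their replicate numbers, and with them as a replicate block the number of genes called in all went from 994 to 572 and that of the 9 stayed at 0.

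**Figure D3:**
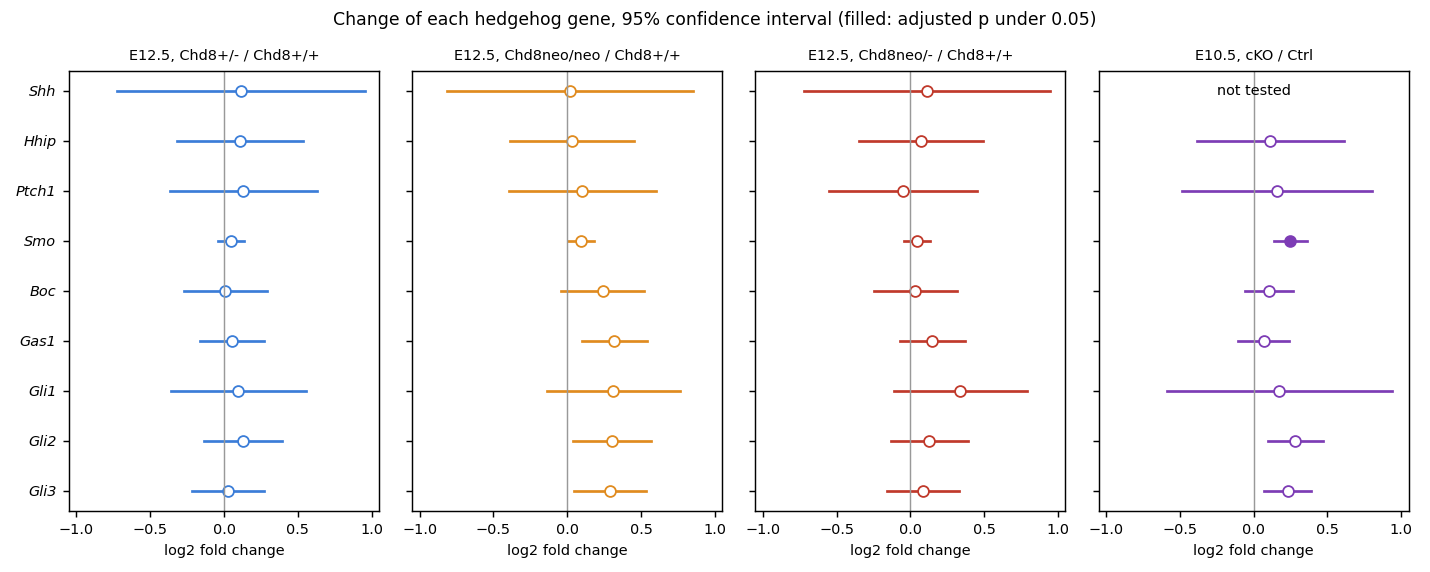
Log2 fold change of each of the 9 genes (points) with its 95% confidence interval (lines) in 3 comparisons at E12.5 and in cKO against Ctrl at E10.5, from edgeR's quasi-likelihood fit; a filled point has an adjusted p under 0.05. The only filled point is Smo at E10.5 at 0.25, and the intervals of Shh at E12.5 reach from about -0.8 to nearly 1, whereas those of Smo are the narrowest.

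At E10.5 Smo rose in cKO vesicles. It was 218, 227 and 222 CPM in Ctrl and 262, 265 and 265 in cKO libraries, without overlap (222 ± 4.14 against 264 ± 1.59, SD, n = 3), a log2 fold change of 0.25 (SE 0.052, adjusted p = 0.013). The factors Gli2 and Gli3 were also higher in every cKO library but missed the threshold. Gli2 was 64.8, 83.2 and 78.7 CPM in Ctrl and 88.4, 93.4 and 93.7 in cKO vesicles (log2 0.28, SE 0.085, adjusted p = 0.056), and Gli3 was 346, 395 and 390 CPM in Ctrl and 410, 465 and 453 in cKO vesicles (log2 0.23, SE 0.072, adjusted p = 0.064). Ptch1 and Gli1, commonly read as pathway output, overlapped between the groups: Ptch1 was 40.4, 51.5 and 66.8 CPM in Ctrl and 47.6, 55.7 and 73.9 in cKO (log2 0.16, 95% interval -0.48 to 0.80), and Gli1 was 19.4, 23.9 and 35.03 CPM in Ctrl and 26.2, 23.7 and 38.6 in cKO (log2 0.18, 95% interval -0.59 to 0.94). Replicate 3 was the highest of its group for Ptch1 and Gli1 in Ctrl and cKO alike, and Foxd1 (14.3 and 17.1 CPM against 6.55 to 10.1 in the others) and Olig2 (8.64 and 9.21 CPM against 2.89 to 4.28) were highest in the same libraries. So were the summed diencephalon and hypothalamus markers, which include Foxd1, at 22.9 and 28.3 CPM. The summed ventral telencephalon markers were not. They were 24.5 CPM in Ctrl replicate 3, against 27.3 in Ctrl replicate 1. In cKO replicate 3 they were 10.8 CPM, the lowest of the group. The part of these regions in the levels of Ptch1 and Gli1 was not tested. Boc was at log2 0.10, Gas1 at 0.07 and Hhip at 0.11, with 95% intervals that include 0.

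By edgeR's quasi-likelihood test 1 of the 8 tested genes was called in cKO against Ctrl, a share close to the 11.4% of 18435 genes called in all. All 8 log2 fold changes were above 0, with a median of 0.17 against -0.00 over all genes, and 3 of 8 were higher in all cKO than in all Ctrl libraries, where 15.7% of all genes were. DESeq2 called 3, adding Gli2 (adjusted p = 0.017, range over alternatives 0.0034 to 0.18) and Gli3 (adjusted p = 0.021, range 0.021 to 0.25). The call of Smo was lost without Ctrl replicate 3 (adjusted p = 0.057), without cKO replicate 2 (adjusted p = 0.076) or without cKO replicate 3 (adjusted p = 0.059), with a log2 fold change of 0.23 to 0.26 throughout. The summed level of the 9 meninges and mesenchyme markers was also higher in cKO libraries, 1017 to 1199 CPM against 820 to 906 in Ctrl, and 3 of these 9 rose by the same test: Pdgfra (log2 0.41, adjusted p = 0.0014), Col1a2 (log2 0.40, adjusted p = 0.013) and Col3a1 (log2 0.44, adjusted p = 0.027). Endothelial markers summed to 228 to 270 CPM in cKO and 218 to 228 in Ctrl, with Cdh5 called (log2 0.25, adjusted p = 0.048). Hedgehog receptors are also expressed in mesenchyme, and the part of mesenchyme in the levels of Smo, Gli2 and Gli3 was not tested.

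The promoters of these 3 genes are printed because they are those that were separate between the groups at E10.5. The sequences are RefSeq's (GRCm38.p6) and run from 250 bases before to 50 bases after the annotated start, 5′ to 3′ along the gene. Promoters of 6 of the 9 genes matched by symbol. The consensus GLI site GACCACCCA, searched on both strands, was in none of the 6 and in 0.253% of 32851 promoters. Its inner letters ACCACCC, likewise on both strands and contained in every full site, were in 1 of the 6, that of Gli2, 205 bases before the start, and in 4.61% of all promoters; they stand in capitals below.
Smo, chr6:29735247-29735546, plus strand: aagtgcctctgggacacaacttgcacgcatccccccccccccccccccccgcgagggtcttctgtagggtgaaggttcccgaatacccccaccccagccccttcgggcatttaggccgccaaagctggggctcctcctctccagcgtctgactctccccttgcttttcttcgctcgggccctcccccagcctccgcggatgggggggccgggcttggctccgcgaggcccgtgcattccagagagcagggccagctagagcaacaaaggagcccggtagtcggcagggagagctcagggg
Gli2, chr1:119053570-119053869, minus strand: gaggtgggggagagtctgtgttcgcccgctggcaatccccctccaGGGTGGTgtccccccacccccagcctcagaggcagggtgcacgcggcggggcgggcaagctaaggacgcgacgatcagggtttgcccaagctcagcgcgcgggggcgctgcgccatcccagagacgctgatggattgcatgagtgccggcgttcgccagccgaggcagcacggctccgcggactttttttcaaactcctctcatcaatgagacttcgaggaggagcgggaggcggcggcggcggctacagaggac
Gli3, chr13:15463473-15463772, plus strand: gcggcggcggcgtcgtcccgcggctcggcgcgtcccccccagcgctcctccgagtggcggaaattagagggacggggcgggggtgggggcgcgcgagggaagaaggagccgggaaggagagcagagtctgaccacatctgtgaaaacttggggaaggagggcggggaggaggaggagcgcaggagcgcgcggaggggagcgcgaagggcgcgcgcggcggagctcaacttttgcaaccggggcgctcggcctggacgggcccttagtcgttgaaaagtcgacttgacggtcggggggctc
All 3 are rich in G and C, at 67.7% in Smo, 67.3% in Gli2 and 71.0% in Gli3, against a median of 52.7% over all promoters, and hold 17, 28 and 39 CG pairs against a median of 7. The other 3 promoters held 62.3% in Gas1, 73.7% in Hhip and 76.3% in Ptch1, so a high content was no mark of the genes that were separate. A match or its absence in these 300 bases says nothing of distant enhancers.

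The stages can be set side by side only as values, since age, dissection, pooling and sequencing run cannot be told apart. In the control libraries Shh went from 0.0159 ± 0.0111 CPM per kb in E10.5 Ctrl to 3.6 ± 0.698 in E12.5 Chd8+/+ (SD, n = 3 each), Hhip from 0.255 ± 0.0841 to 0.661 ± 0.0703 and Ptch1 from 6.05 ± 1.51 to 12.2 ± 0.693. Gli1 stood at 7.12 ± 2.19 at E10.5 and 4.23 ± 0.483 at E12.5. The receiving side was higher at E10.5 for Gas1 (74.4 ± 6.80 against 49.4 ± 4.97), Smo (39.5 ± 0.737 against 31.2 ± 1.23), Gli3 (39.3 ± 2.81 against 28.8 ± 3.11) and Boc (26.4 ± 1.38 against 19.7 ± 2.35), all in CPM per kb, and close for Gli2 (11 ± 1.40 against 9.79 ± 1.46). Ptch1 thus ranked above Gli2 and Gli1 at E12.5 and below both at E10.5, where its libraries overlapped those of Gli1. Ptch1 and Gli1 were detected at E10.5 although Shh was at the floor in the same libraries. Nkx2-1 rose alongside the ligand in these values, from 0.0996 to 1.37 CPM over the E10.5 libraries to 55.6 to 99.5 CPM over those of E12.5, as did Olig2, from 2.89 to 9.21 to 34.2 to 51.7 CPM. Foxa2, a floor plate gene, had at most 2 counts in any E10.5 library and at most 21 at E12.5.

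Across the 12 E12.5 libraries the 9 genes fell into sets that varied together. On the log2 CPM scale Pearson's r was 0.90 for Shh with Hhip, 0.83 for Ptch1 with Hhip and 0.80 for Shh with Ptch1. In the other set it was 0.98 for Smo with Gli2, 0.92 for Smo with Gli3, for Gli2 with Gli3 and for Boc with Gas1, and no pair among Smo, Gli2, Gli3, Boc and Gas1 was under 0.70. Between the sets, pairs with Gas1 or Boc ran from -0.52 (Shh with Gas1) to -0.35 (Ptch1 with Boc). Pairs with Smo, Gli2 or Gli3 ran from -0.07 (Shh with Gli3) to 0.27 (Ptch1 with Gli2). Gli1 lay between, at 0.59 with Ptch1 and 0.46 with Gli2, but at -0.03 with Boc and 0.12 with Gas1. These are descriptions over libraries of 4 genotypes that share sequencing runs and the regional differences given above.

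The genes whose levels most resembled a member over the same 12 libraries were named by rule as the 3 with the highest r. For Shh they were Anxa5, an annexin (r = 0.93, Spearman's rho = 0.92), Gsx1, a ventral patterning factor (r = 0.90, rho = 0.71), and Hhip (r = 0.90, rho = 0.88). Those of Ptch1 were Cxxc4 (r = 0.98, rho = 0.88), Dpysl4 (r = 0.94, rho = 0.92) and Dbx1, a homeobox factor of progenitors (r = 0.94, rho = 0.74), which ranged from 4.57 to 27 CPM. For Gli1 they were Slc26a8, Gm15222 and Gm26793, each at r = 0.93 and none above 4.79 CPM in any library. With 18810 genes and 12 libraries, high values of r arise readily.

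Among 35 other genes of the pathway, Spop fell and Hhat rose in both hypomorphs and in the cKO. Spop, the substrate adaptor of the ubiquitin ligase that degrades Gli proteins, was 119 ± 0.661 CPM in Chd8+/+, 99.3 ± 2.15 in Chd8neo/neo and 101 ± 2.31 in Chd8neo/- neocortex (log2 -0.26, adjusted p = 0.0016, and log2 -0.23, adjusted p = 9.7e-04), and at E10.5 109 ± 3.96 in Ctrl and 80.1 ± 3.29 in cKO (log2 -0.44, adjusted p = 0.0013; SD, n = 3 each). Its call held under all 22 alternatives for each hypomorph and all 13 for the cKO. Hhat, the acyltransferase that attaches palmitate to hedgehog ligands, was 4.94 ± 0.122 CPM in Chd8+/+, 6.70 ± 0.443 in Chd8neo/neo (log2 0.44, adjusted p = 0.024) and 6.78 ± 0.430 in Chd8neo/- neocortex (log2 0.46, adjusted p = 0.014), and 7.77 ± 0.823 in Ctrl and 9.99 ± 0.573 in cKO vesicles (log2 0.36, adjusted p = 0.047). That call held under 14, 20 and 7 of the same alternatives. In all 3 comparisons the groups did not overlap for either gene. The hypomorph comparisons share the Chd8+/+ libraries, while the cKO comparison shares none with them.

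The remaining calls differed by comparison. Disp2, of the family that releases lipid-bearing hedgehog from cells, fell in Chd8neo/neo (47.9 ± 5.39 to 32.0 ± 3.71 CPM, log2 -0.58, adjusted p = 0.0074) and in Chd8neo/- (36.5 ± 2.69 CPM, log2 -0.39, adjusted p = 0.028), kept under 22 and 15 of 22 alternatives, and was at log2 -0.22 (adjusted p = 0.67) in the cKO. Efcab7, which anchors the Evc complex that acts with Smo at the cilium, fell in Chd8neo/- (12 ± 1.31 to 6.37 ± 0.243 CPM, log2 -0.91, adjusted p = 0.0084). At E10.5 Gpc3, a glypican that competes for ligand, rose in cKO (124 ± 9.68 to 188 ± 24.4 CPM, log2 0.60, adjusted p = 0.0044), as did Disp1, the main transporter for ligand release (23.1 ± 2.30 to 31.0 ± 0.393 CPM, log2 0.42, adjusted p = 0.0099), kept under 13 and 12 of 13 alternatives. Mesenchyme markers were also higher in cKO libraries, and the part of mesenchyme in the levels of Gpc3 and Disp1 was not tested. In all, edgeR called 1 of 35 higher and 2 lower in Chd8neo/neo, 1 higher and 7 lower in Chd8neo/-, and 4 higher and 2 lower in cKO, with medians of -0.02, -0.07 and 0.11; over all genes 3.71% were higher and 4.45% lower in Chd8neo/neo, 5.48% and 5.99% in Chd8neo/-, and 5.75% and 5.70% in cKO. In Chd8neo/neo against Chd8+/-, 5 of 35 fell and 0 rose, where 3.28% and 2.00% of all genes did, the largest change being that of Efcab7 (log2 -0.80, adjusted p = 0.030) and the others including Disp2, Prkacb, a catalytic subunit of protein kinase A (log2 -0.24, adjusted p = 0.015), and Spop (log2 -0.19, adjusted p = 0.016). All 5 calls were lost without Chd8+/- replicate 2 and Chd8neo/neo replicate 2 together, with only the compared groups in the fit, without Chd8+/- replicate 1 and without Chd8neo/neo replicate 1. In Chd8+/- against Chd8+/+ edgeR called 0 of 35, with 5 at an unadjusted p under 0.05 and 0 by DESeq2, and in Chd8neo/- against Chd8neo/neo 0, with 4 and 0.

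Sufu, Kif7 and Cdon, further regulators, were not called in any comparison. Sufu, which restrains Gli proteins, was at log2 0.12 in Chd8neo/neo, -0.01 in Chd8neo/- and 0.08 in cKO, and Kif7, the ciliary kinesin of the pathway, at 0.02, -0.14 and -0.09. The coreceptor Cdon was at -0.15, -0.16 and 0.18. All adjusted p were 0.12 or above by edgeR.

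Of 36 genes for the primary cilium, Ift122 and Ift140 rose in both hypomorphs and in the cKO. Ift122, of the transport complex that returns cargo along the cilium, was 41.6 ± 1.45 CPM in Chd8+/+, 48.8 ± 1.16 in Chd8neo/neo (log2 0.23, adjusted p = 0.0099) and 53.3 ± 1.26 in Chd8neo/- neocortex (log2 0.36, adjusted p = 2.8e-04), and 42.2 ± 1.71 in Ctrl and 60.0 ± 0.444 in cKO vesicles (log2 0.51, adjusted p = 5.5e-04). Its call held under 21 of 22, all 22 and all 13 alternatives. Ift140, of the same complex, was at log2 0.16 (adjusted p = 0.037), 0.21 (adjusted p = 0.0078) and 0.31 (adjusted p = 0.013), and in Chd8neo/neo held under 7 of 22. Cep164, a basal body protein, rose in Chd8neo/neo (log2 0.31, adjusted p = 0.015) and in cKO (log2 0.32, adjusted p = 0.019), kept under 20 of 22 and 9 of 13 alternatives, and was at log2 0.21 (adjusted p = 0.054) in Chd8neo/-. Ttbk2, a kinase that starts cilium assembly, fell in Chd8neo/neo (log2 -0.19, adjusted p = 0.014, kept under 17 of 22 alternatives) and in Chd8neo/- (log2 -0.19, adjusted p = 0.0097, kept under 21 of 22). Ttc21b, listed like Ift122 and Ift140 for transport along the cilium, fell in Chd8neo/- (log2 -0.24, adjusted p = 0.013, kept under 20 of 22) and in cKO (log2 -0.23, adjusted p = 0.038, kept under 7 of 13). Ift20 rose in Chd8neo/- (log2 0.24, adjusted p = 0.014, kept under 19 of 22), and Intu fell in cKO (log2 -0.27, adjusted p = 0.017, kept under 10 of 13). In Chd8neo/neo 3 of 36 were called higher and 1 lower, where 8.16% of all genes were called either way. In Chd8neo/- 6 were higher and 3 lower, against 11.5% of all genes, and in cKO 6 and 5, against 11.4%. The medians were 0.03, 0.08 and 0.02. The members of this list thus moved both ways. In Chd8neo/neo against Chd8+/-, Fuz rose (log2 0.39, adjusted p = 0.022) and Ttbk2 fell (log2 -0.20, adjusted p = 0.019), calls kept under 16 and 17 of 22 alternatives and lost under the same 4 settings as the pathway genes above. The edgeR test called 0 of 36 in Chd8+/- against Chd8+/+ (2 at an unadjusted p under 0.05) and 0 in Chd8neo/- against Chd8neo/neo (5 at an unadjusted p under 0.05), and DESeq2 0 in each.

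**Figure D4:**
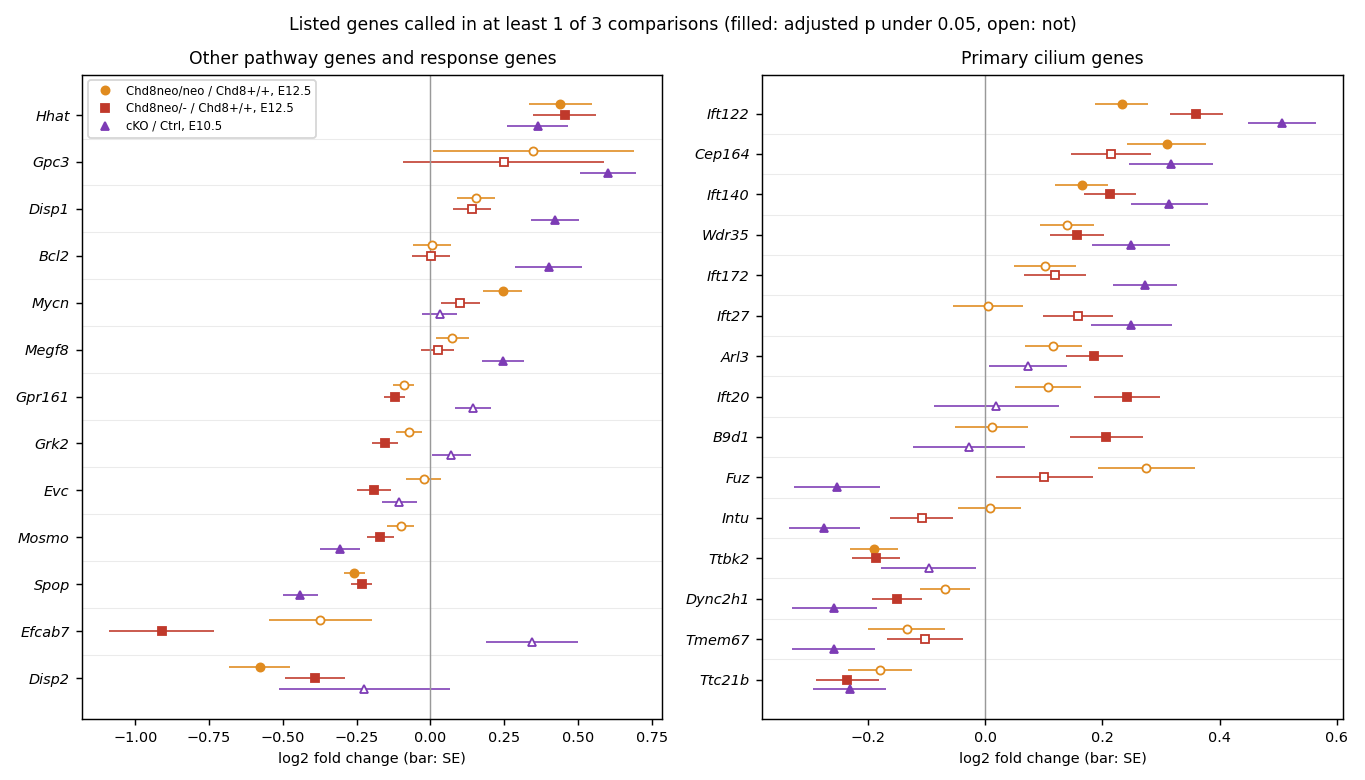
Log2 fold change (points) with SE (bars) of the other pathway and response genes (left) and primary cilium genes (right) called in at least 1 of 3 comparisons, Chd8neo/neo and Chd8neo/- against Chd8+/+ at E12.5 and cKO against Ctrl at E10.5; filled points have an adjusted p under 0.05 by edgeR's quasi-likelihood test. Hhat, Ift122 and Ift140 are filled on the right of 0 and Spop on the left in all 3 comparisons, and Efcab7 has the lowest filled value at -0.91 in Chd8neo/-.

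Downstream of the pathway, 17 genes are listed that are known to respond to hedgehog in other tissues. Mycn, a transcription factor of progenitor growth, rose in Chd8neo/neo (99.3 ± 5.53 to 118 ± 6.21 CPM, log2 0.25, adjusted p = 0.037, kept under 13 of 22 alternatives), and Bcl2, an inhibitor of cell death, rose in cKO (15.2 ± 1.34 to 20.1 ± 2.97 CPM, log2 0.40, adjusted p = 0.045, kept under 8 of 13). These were the only calls, 1 of 16 genes tested in Chd8neo/neo and 1 of 12 in cKO, near the 8.16% and 11.4% of all genes called; in Chd8neo/- edgeR called 0, with 1 at an unadjusted p under 0.05 and 0 by DESeq2. Nkx2-1 was at log2 -0.15 (adjusted p = 0.68) in Chd8neo/neo and -0.03 (adjusted p = 0.95) in Chd8neo/-, and Olig2 at 0.04 (adjusted p = 0.88) and -0.09 (adjusted p = 0.71). At E10.5 their SEs were 0.92 and 0.59 on the log2 scale, and neither was called. Among ventral telencephalon markers Gad1, the enzyme of GABA synthesis, fell in Chd8neo/neo (log2 -0.40, adjusted p = 0.032, kept under 15 of 22 alternatives) and in Chd8neo/- (log2 -0.34, adjusted p = 0.049, kept under 9 of 22), and at E10.5 Gsx2, a ventral progenitor factor, fell from 3.76 ± 1.54 to 1.39 ± 0.389 CPM in cKO (log2 -1.43, adjusted p = 0.049, lost under 9 of 13 alternatives). Of the dorsal markers Pax6 rose in Chd8neo/neo (log2 0.19, adjusted p = 0.020). Among markers of other cell types, Kdr, an endothelial receptor, fell in Chd8neo/neo (log2 -0.17, adjusted p = 0.024).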

How the data were processed

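The deposited files hold raw counts of RNA sequencing reads per gene, which the authors made with FastQC 0.11.2, Trim Galore 0.4.1, TopHat2 2.1.0 and featureCounts 1.5.0 on GRCm38. Per the file headers the E12.5 counting set no strand option although the libraries were stranded, so overlapping antisense genes cannot be told apart; the E10.5 setting is not given in the sources used here. The labels list 36 samples, 18 libraries with 2 sequencing runs each, and runs were summed. All per-sample columns were used. Intervals of 95% come from the fit.

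Counts were analysed with R 4.3.3 and edgeR 4.0.16 (TMM scaling, filterByExpr, robust quasi-likelihood F test, Benjamini-Hochberg adjustment over all genes tested, threshold 0.05). The 12 E12.5 libraries entered 1 fit by genotype and the 6 E10.5 libraries another. Tests were checked on simulated counts. DESeq2 1.42.0, other scalings, no filter, single runs, a replicate block, a sex-linked term and leaving out each library were alternatives. At E12.5 Xist lay above Y-linked RNA in Chd8+/+ replicate 3, Chd8+/- replicate 1 and Chd8neo/neo replicates 1 and 2. It lay below in the others, which include every Chd8neo/- library, so sex and genotype are partly confounded. The labels do not say what a replicate number stands for. Among the groups compared, same-numbered libraries deviated together in all 3 pairs only for Chd8neo/neo and Chd8+/-, with correlations of 0.108, 0.195 and 0.199. Blocking lowered the genes called there from 994 to 572. At E10.5 the correlation of cKO with Ctrl was 0.114 for replicate 3, and -0.103 and -0.0181 for replicates 1 and 2. Replicates came from different litters.

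The 9 genes and the gene lists were chosen with earlier results of these data known. All 9 are named throughout. From each other list and comparison, up to the 4 largest called changes were named if the groups were separate and the mean was 10 counts or more, and in any case Nkx2-1, Foxa2, Olig2, Sufu, Kif7, Cdon and Chd8; a few genes that the rule names are not reported here. Further comparisons in which Ttbk2 and Ttc21b were called were added after their values were seen. Otp and Foxd1 fall outside the naming rule, were called in no comparison and were named for their levels in single libraries. Similar genes are the 3 with the highest Pearson correlation of log2 CPM (prior count 2).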

Additional observations from a re-analysis of the deposited data

How the results depend on the processing

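Of 1094 values of the 9 genes under the alternatives, 1011 kept direction and side of the threshold, 20 became called, 3 lost the call, 60 uncalled values changed sign and 0 called values did. The cause of each change was not tested. The number of genes called in Chd8+/- against Chd8+/+ (4) was 15 with DESeq2, 2 with the replicate block, 1 with only the compared groups in the fit, and 2 to 6 leaving out 1 library. For Chd8neo/neo against Chd8+/+ (1534) it was 430 with only the compared groups, 605 without Chd8+/- replicate 2 and Chd8neo/neo replicate 2 together (an alternative chosen after seeing the data), 1005 with a sex-linked term, and 435 (without Chd8neo/neo replicate 2) to 2605 (without Chd8neo/neo replicate 3). For Chd8neo/- (2158) it was 1015 (without Chd8neo/- replicate 2) to 2574. For Chd8neo/neo against Chd8+/- (994) it was 1786 with DESeq2, 572 with the replicate block, 42 with only the compared groups, 3 without the 2 libraries, 387 with the sex-linked term, and 23 (without Chd8neo/neo replicate 2) to 2100 (without Chd8neo/neo replicate 3). For Chd8neo/- against Chd8neo/neo (3) it was 27 with DESeq2, 9 with no filter, 1 with only the compared groups, 1 without the 2 libraries, and 1 to 23 leaving out 1 library. For cKO (2110) it was 538 (without cKO replicate 2) to 2483.

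Of the 9 genes, the number called in Chd8neo/neo against Chd8+/+ (0) was 3 with DESeq2 and 1 without the 2 libraries, and in Chd8neo/- (0) it was 1 with only the compared groups and 1 without the 2 libraries. Leaving out 1 library gave 0 to 1 for Chd8neo/neo against either control and for Chd8neo/-, and 0 in the others at E12.5. In cKO (1) it was 3 with DESeq2, 3 with no filter, 3 with the replicate block, 2 with the second run only, and 0 (without Ctrl replicate 3) to 3 (without Ctrl replicate 2). Apart from these counts the block changed no number of calls by over 1.5 times. No scaling moved the median of all genes by over 0.0115 on the log2 scale.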
